A study of Saccharomyces cerevisiae with 76 samples.

Results

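HML and HMR are the silent mating-type loci of budding yeast, on opposite arms of chromosome III. HML carries HMLALPHA1 and HMLALPHA2, unexpressed copies of the alpha genes, and HMR carries HMRA1 and HMRA2, unexpressed copies of the a genes. Abf1 peaks were assigned to the loci when their summit, the position of highest signal, was inside one of these 4 ORFs or at most 3000 bp from either end. Of 948 Abf1 peaks in the genome, 2 met this rule. Both were at HMR, 1 at the HMR-E silencer and 1 with its summit inside a tRNA gene, and none was at HML. MAT, the expressed locus that shares its sequence with both, had 0 peaks under the same rule, and all of chromosome III had 24.

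The series followed Abf1 by ChIP-seq in an anchor-away strain, in which rapamycin removes the tagged protein from the nucleus, over 11 time points up to 90 min and in an untagged strain, with 76 listed samples. The peaks described here were called by the authors on 3 immunoprecipitations together against 3 inputs of the t = 0 group, which had received DMSO for 90 min and no rapamycin. These cells were BY4742, MATalpha, with tor1-1, fpr1del, RPL13A-FKBP12-NAT and Abf1-FRB-yEGFP-3V5-hphMX4, and the antibody was anti-V5. The depletion time points and the untagged strain were not analysed here. The parental alleles tor1-1, fpr1del and RPL13A-FKBP12-NAT are shared by every sample, so all values come from a rapamycin-desensitised background with a tagged Abf1. The 3 replicates entered the peak calling as 1 pool, so each peak had a single value, no spread between replicates and no test between samples.

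Silencing at HML and HMR starts from short DNA elements called silencers, named E and I, on either side of the genes. Silencers combine binding sites for the origin recognition complex (ORC), Rap1 and Abf1, which together recruit the Sir proteins that form silent chromatin. HMR-E is known for sites for all of these factors, HMR-I and HML-I for ORC and Abf1 sites, and HML-E for ORC and Rap1 sites. Abf1 is a general regulatory factor that also binds many promoters. A cell expresses only the genes at MAT, and HML and HMR serve as donors of sequence when MAT switches.

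The silencer sequences are shown because they hold the factor binding sites that the peaks lie near or miss. They were read from the R64 reference, which is the sacCer3 build of the peak list, on the plus strand from 5′ to 3′. Capitals mark the ARS consensus that ORC binds, the Rap1 letters ACCCATNNA and the Abf1 consensus, each searched on both strands. At HMR-E the capitals are, in order, the ARS consensus on the minus strand, Rap1 on the plus strand and Abf1 on the plus strand. At HML-I they are Abf1 on the minus strand followed by the ARS consensus, and at HML-E they are Rap1 on the minus strand followed by the ARS consensus.
HMR-E, chrIII:292664-292851: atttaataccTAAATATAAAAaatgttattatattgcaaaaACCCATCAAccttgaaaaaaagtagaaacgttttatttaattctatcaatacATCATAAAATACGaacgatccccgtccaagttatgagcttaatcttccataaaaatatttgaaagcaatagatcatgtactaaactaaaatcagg
HML-I, chrIII:14590-14721: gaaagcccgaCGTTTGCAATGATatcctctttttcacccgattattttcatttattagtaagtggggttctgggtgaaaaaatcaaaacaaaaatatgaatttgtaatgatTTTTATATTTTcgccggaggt
HML-E, chrIII:11229-11277: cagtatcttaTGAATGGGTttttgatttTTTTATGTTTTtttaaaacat

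An exact ARS consensus stood in 1.31% of all 60051 windows of 201 bp of the nuclear genome, and the Rap1 letters in 2.61%. No exact ARS consensus was found between the end of HMRA1 and the end of the annotated HMR cassette, which contains HMR-I, and these letters are only one version of the sites that ORC can bind. A match is a description of the sequence and not a measurement of binding.

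The 4 matches to Abf1 at the loci that fit the consensus without a mismatch are given next. Only 1 of them had a summit within 100 bp. Each is written along the strand of the motif, with the 13 letters of the consensus in capitals. The capital before them is the base at −8 bp from the midpoint of the motif, which lies outside the consensus. This base is shown because Abf1 is known to cross-link poorly to DNA where it is A or T. The study left out sites with A or T there. It reports that low signal at such sites did not fall during depletion. It proposes that Abf1 from the cytosol, rebinding in the ChIP procedure, is the likely source. Whether this holds for the HMR peaks was not tested.
HMR-E, chrIII:292743-292783, plus strand: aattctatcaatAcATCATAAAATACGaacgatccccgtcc
HMR-I, chrIII:294791-294831, minus strand: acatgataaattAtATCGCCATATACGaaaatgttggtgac
HMRA1 end, chrIII:294311-294351, minus strand: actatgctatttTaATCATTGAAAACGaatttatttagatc
HML-I, chrIII:14586-14626, minus strand: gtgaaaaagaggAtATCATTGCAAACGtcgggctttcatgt
All 4 sites had A or T at −8 bp.

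The peak at HMR-E was weak. Its summit was at position 292841 of chromosome III, in an interval of 353 bp from 292699 to 293051, between YCR095W-A, 3044 bp to the left, and HMRA2, 338 bp to the right. HMRA2 runs on the minus strand from 293538 down to 293179, so the summit was beyond its 3′ end and not in its promoter. Fold enrichment, the authors' ratio of fragments covering the summit to the background expected there, each with 1 added, was 2.20. The number of fragments was solved from this ratio and the deposited −log10 p-value and came to 276 fragments, with an exact Poisson 95% interval of 244 to 311, over a background of 124.7 fragments. These bounds correspond to fold enrichments of 1.95 to 2.48, and they cover counting error only. The deposited −log10 p-value of this peak was 31.2 and the deposited −log10 q-value was 29.6.

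Against the list, the HMR-E peak ranked 872 of 948 by fold enrichment and 938 by fragments. The list ran between 2.00 and 68.2 with a median of 3.52, and the authors' threshold was 2. At the upper bound of its interval the HMR-E peak would rank 794, and its lower bound was under the fold enrichment of every peak in the list. Its background was the lowest that occurs in the list, and 47 peaks (4.96%) had a background within 1 fragment of it. The background of all peaks ran between 124.7 and 211.4 fragments with a median of 140.7.

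The HMR-E summit was within 100 bp of its Abf1 consensus but not centred on it. The midpoint of the motif was at 292763, 78 bp to the left of the summit, inside the interval and 69 bp from ARS317, the replication origin annotated at HMR-E (292638 to 292694). Summits of the strongest chromosome III peaks were nearer to their motif midpoints: 844 against 835, 258763 against 258759, 316031 against 316046 and 216502 against 216498. The Rap1 letters, at 292705 to 292713, were 132 bp from the summit and inside the interval, while the ARS consensus at 292674 to 292684 was 162 bp from the summit and outside the interval, both measured from the middle of the element. Among the 6 origins annotated at the loci, ARS317 was the only one with a summit within 200 bp, at a distance of 147 bp, where 10.8% of all 352 annotated origins had one.

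The second HMR peak was stronger and lay on the HMR-I side. Its summit, at 295506, was inside the tRNA-Thr gene YNCC0014W (295484 to 295556), 1185 bp beyond the 3′ end of HMRA1 and 1543 bp from GIT1, which encodes a glycerophosphoinositol transporter. This tRNA gene is known as a boundary that keeps silent chromatin from spreading past HMR. Fold enrichment was 3.37, from 448 fragments (407 to 491) over a background of 132.1 fragments, which gives bounds of 3.07 to 3.70. The deposited −log10 p-value was 102.5 and the −log10 q-value was 100.7. The peak ranked 499 of 948 by fold enrichment, with ranks of 454 and 579 at its bounds, and 556 by fragments.

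The interval of the tRNA-side peak was long. It ran over 1366 bp, between 294375 and 295740, and so took in HMR-I as well as the tRNA gene. The median interval of the list was 540 bp, and 13 of the 799 intervals with a single summit were longer. The summit was 1131 bp from the far end of the interval. ARS318, the origin annotated at HMR-I (294820 to 294901), and the Abf1 consensus at HMR-I, with its midpoint at 294811, were inside the interval, but the consensus was 695 bp from the summit. The list gives 1 summit for the interval, so it holds no separate value for HMR-I.

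The signal over a tRNA gene was common in the list. Of 275 tRNA genes, 231 (84.0%) held a summit, and the fold enrichment of these 231 peaks ran between 2.03 and 9.79 with a median of 2.95. The HMR peak ranked 58 among them. Its interval was longer than the median of 326 bp for tRNA genes, and 5 of the other tRNA peaks had a longer one. An Abf1 motif stood within 100 bp of 23 (9.96%) of the 231 summits, the HMR peak among them. Without the peaks inside tRNA genes, the HMR-E peak was the remaining peak of the loci, with 71 of 717 peaks lower. The study's methods treat weak signal over tRNA genes and ORFs as an artefact of ChIP and leave it out by a stricter limit on fold enrichment, which the HMR tRNA-side peak did not reach. The HMR-E peak, at 2.20, did not reach it either, so the place of both peaks at the loci rests on the unfiltered list. The part of the tRNA gene in the HMR signal was not tested, and the untagged strain, which carries the same tRNA gene, was not analysed here.

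**Figure D1:**
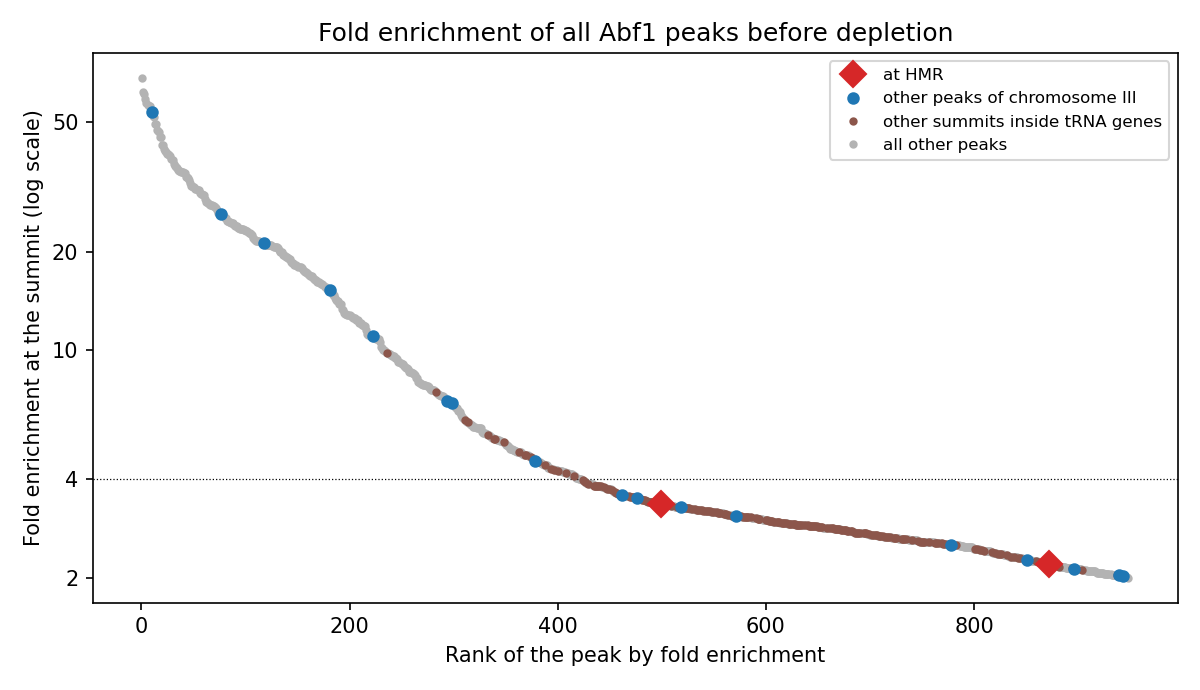
Fold enrichment at the summit (y axis, log scale) of all 948 Abf1 peaks before depletion, ordered by rank (x axis), with the 2 HMR peaks as red diamonds, the other peaks of chromosome III in blue, other summits inside tRNA genes in brown and the rest in grey; the dotted line is a fold enrichment of 4. The HMR peaks sit at ranks 499 and 872, both under the line.

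Neither HMR peak reached a fold enrichment of 4, the level above which the study selected strong sites and below which it left out weak tRNA signal, and 44.4% of all peaks (421 of 948) did. Both HMR peaks had an Abf1 motif within 100 bp of the summit, against 66.5% of all peaks and 10.9% of all windows of 201 bp. A motif here is a match of at least 85% of the score range of a matrix built from 403 sequences at peaks of fold enrichment of 4 or more. The motifs of the pair differed. The one at HMR-E scored 0.933 with no mismatch to the consensus. The one beside the tRNA gene, with its midpoint at 295569 and 63 bp from the summit, scored 0.857 with 1 mismatch and had T at −8 bp. With a search window of 50 bp, neither peak had a motif.

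HML had no peak, and its nearest summits were far away. The gap between adjacent summits that contains HML ran between 844 and 24631, over 23787 bp, and its ends were 11542 bp from HMLALPHA2 and 10822 bp from HMLALPHA1. A gap of this size was not unusual, since 85.3% of the 932 gaps between adjacent summits were shorter and the median was 9035.5 bp. The gap around MAT was 48159 bp, and 97.4% were shorter. Between the pair of HMR summits the distance was 2665 bp. The distances between the origins at HML and the nearest summit were 10302 bp for ARS301 at HML-E, 9782 bp for ARS302 at HML-I, 9418 bp for ARS303 and 8357 bp for ARS320. The list holds only intervals that passed the authors' thresholds, so the absence of a peak puts no number on the signal at HML.

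The loci and the 3000 bp around them held 10 Abf1 motif matches, 4 at HML and 6 at HMR, and MAT held 1. At HML all 4 were on the HMLALPHA1 side, with midpoints at 14136, 14606, 15024 and 15151. The match of 14606 is the HML-I site inside ARS302 (14575 to 14849), and those of 15024 and 15151 were inside ARS303. ARS301, at HML-E, held none. At HMR the midpoints were at 290237, 290628, 292763, 294331, 294811 and 295569. The match at 294331 was 10 bp beyond the 3′ end of HMRA1 and 44 bp outside the interval of the tRNA-side peak.

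Of these 10 matches, 8 had no summit within 100 bp, and 7 were outside every interval. Over the genome, 10.8% of the 7096 matches had a summit within 100 bp, so a match without a summit was the usual case. For the consensus matches at HML-I and HMR-I this comparison is loose, because both scored above most matches. HMR-I, at 0.955, ranked 233 of 7096 by score and HML-I, at 0.93, ranked 623. The HMRA1-end match scored 0.934 and ranked 560, and the HMR-E match ranked 577. The HMR-E match, the one with a summit within 100 bp, thus scored below the HMR-I match and the HMRA1-end match, which had none.

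The base at −8 bp was A or T in 8 of the 10 matches, against 65.7% of all matches in the genome. The exceptions were the matches at 15024 and 290237, which had G, scored 0.852 and 0.862 and had no summit. A score line of 0.93, set after the values had been seen, was used to compare matches like those at the silencers. At or above it, 474 matches in the genome had A or T at −8 bp, and 298 (62.9%) of them had a summit within 100 bp. The median fold enrichment at those 298 was 4.62, with quartiles of 3.02 and 11.0. The HMR-E peak was 280 of 298 in this order, and 6.04% were lower. The other 3 such matches at the loci, at HMR-I, at the HMRA1 end and at HML-I, were among the 176 (37.1%) with A or T and no summit. Of those 176 matches, 22 were inside an interval, as the HMR-I match was. Of 155 matches with G or C at or above the same score, 143 (92.3%) had a summit, and the fold enrichment at those had a median of 23.7.

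**Figure D2:**
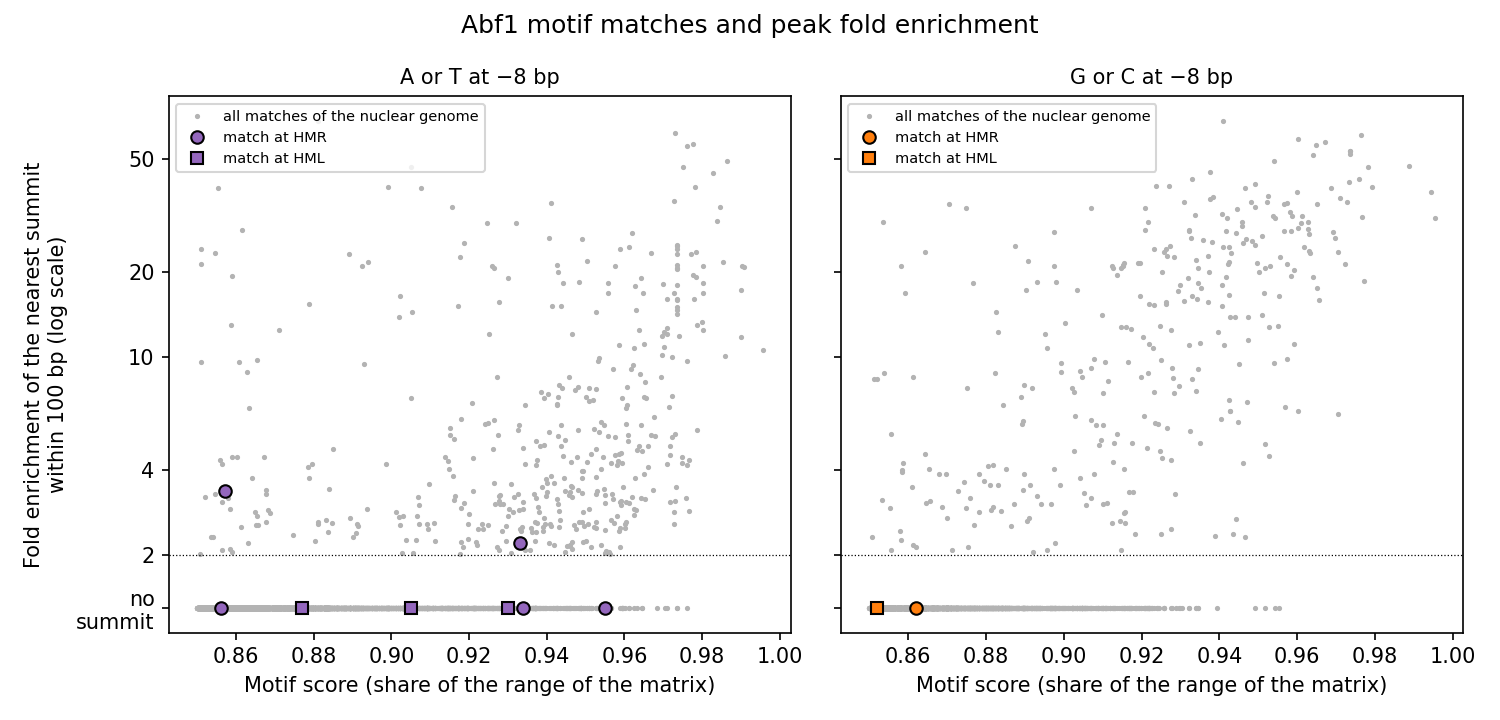
Each point is an Abf1 motif match of the nuclear genome, with its score on the x axis and the fold enrichment of the nearest summit within 100 bp on the y axis (log scale, with matches without a summit in a row at the bottom); matches with A or T at −8 bp are on the left, those with G or C on the right, and large circles and squares mark HMR and HML. Of the 10 matches at the loci, 2 have a summit, at fold enrichments of 2.20 and 3.37, and both have A or T at −8 bp.

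Chromosome III also held strong peaks whose motif had A at −8 bp. The one with summit 258763 had a fold enrichment of 26.1 and a match score of 0.949. Within 100 bp of it, 100% of single reads were unique. The part of this base in the HMR-E signal was not tested. The peaks nearest to each end of the chromosome serve as a comparison with a limit. The study left out peaks in telomeric regions, reporting that traits such as motif composition set them apart from other peaks. Whether the end peaks were among those was not checked here. The sequences at the chromosome ends are shown with the same capitals.
Right end, chrIII:316026-316066, minus strand: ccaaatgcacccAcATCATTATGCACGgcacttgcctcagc
Left end, chrIII:815-855, plus strand: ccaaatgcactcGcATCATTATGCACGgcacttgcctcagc
The HMR-E peak had 276 fragments over a background of 124.7, the lowest in the list. The right-end peak, with summit 316031, had 2664 fragments over the same lowest value and a fold enrichment of 21.2. Whether this shared value reflects the local input at each site was not tested. The left-end peak, with summit 844, had 7411 fragments and a fold enrichment of 53.6. The matches at both ends scored 0.974, above all 10 matches at HML and HMR. Unique single reads made up 100% of positions within 100 bp of the HMR-E summit, against 50.2% at the right-end summit and 74.6% at the left-end summit, and for pairs the shares were 100%, 89.6% and 88.1%. The end peaks thus lie in partly repeated sequence with closely similar motifs, and the part of the mapping filter in their values was not tested.

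The authors kept only uniquely mapping reads, which affects sequence that HML, HMR and MAT share. How much of the loci such reads can place was measured on the reference. After the trimming of 12 and 6 bases from reads of 75 bases, a read has 57 bases. It was counted as unique when its exact sequence occurs once in the genome on both strands. Near copies with a mismatch were not counted as copies, so the authors' filter may have kept less than these shares. HMLALPHA1 was identical to MATALPHA1 over all 528 bp, HMLALPHA2 to MATALPHA2 over all 633 bp, and HMRA2 to the 3′ end of MATALPHA2 over all 360 bp. Of the HML cassette between the outer ends of its ORFs (12386 to 13809), single reads placed 0.0% of positions uniquely. For the HMR cassette (293179 to 294321) this was 53.6%, with 0.0% in HMRA2 and 100% in HMRA1, and for MAT it was 0.0%. The nuclear genome as a whole had 94.3%.

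The repeated stretches did not cover the Abf1 sites of the silencers. The longest repeated stretch at HML, from 12197 to 14017 over 1821 bp, ended before the nearest Abf1 match at 14136, and HML-I, ARS303 and ARS320 were in sequence with 100% unique reads. At HMR the repeated stretches were 705 bp from 293032 to 293736, 203 bp from 294390 to 294592, and 81 bp from 295482 to 295562 over the tRNA gene, where the copies were elsewhere in the genome. Every one of the 10 Abf1 matches at the loci had at least 87.6% unique single reads within 100 bp and 100% unique pairs, where a pair counts as unique if either read is and fragments are as long as the shortest interval, 237 bp. HML-E was placed less fully, with 79.7% unique single reads in ARS301 (11146 to 11401) and 100% of pairs, and the sequence left of it, from 9386 to 11225, was repeated in large part elsewhere in the genome.

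Both HMR peaks were read from unique sequence for the most part. Within 100 bp of the HMR-E summit 100% of single reads were unique, as they were for 683 (72.0%) of all peaks. For the tRNA-side summit it was 87.6% of single reads and 100% of pairs, and 168 peaks of the list had a lower share of single reads. Repeated sequence was not free of peaks, since 16 (1.69%) of all peaks had under 50% unique reads, with a median fold enrichment of 3.71. Whether a pair with a single unique read was kept is not given in the sources used here.

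**Figure D3:**
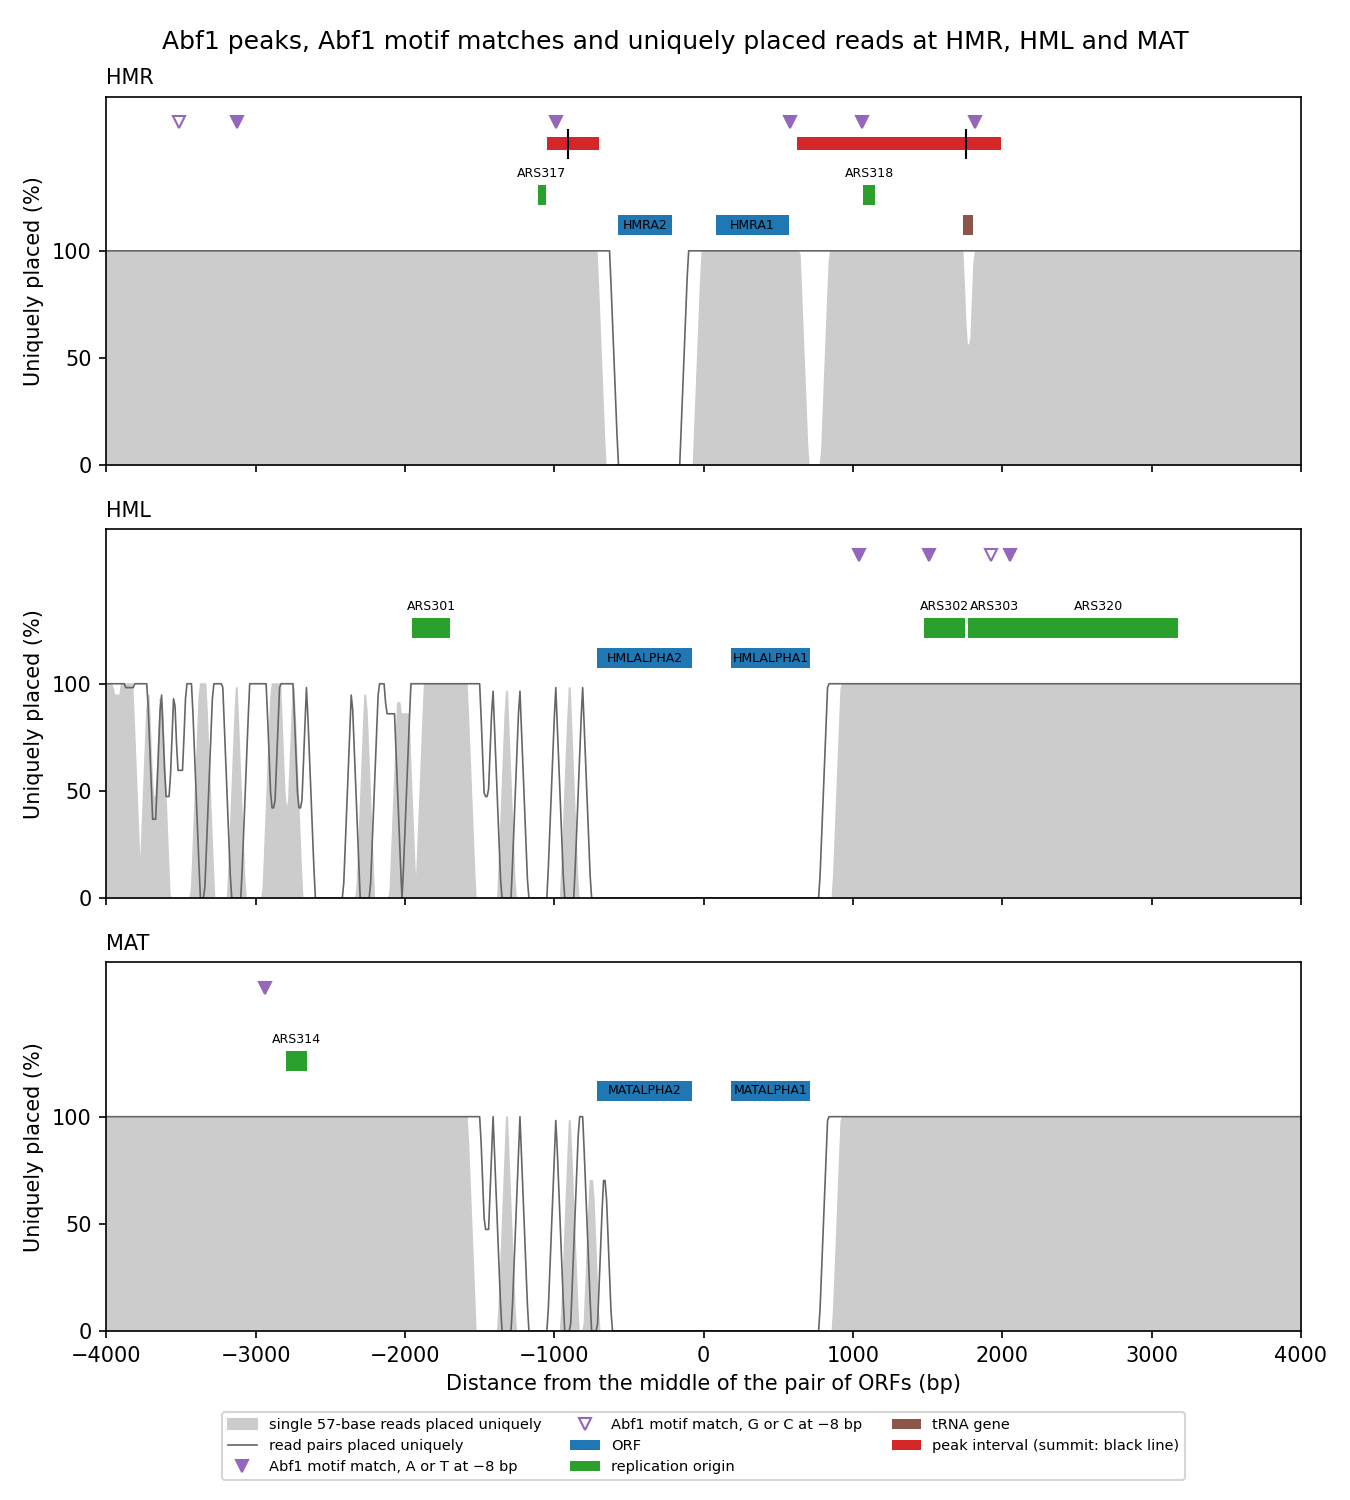
Maps of HMR, HML and MAT along the distance from the middle of the pair of ORFs (x axis, bp), with the share of positions placed uniquely (y axis, percent) by single reads of 57 bases in grey and by read pairs as a line, below the ORFs (blue), origins (green), tRNA gene (brown), peak intervals (red, summit in black) and Abf1 motif matches (triangles, filled for A or T at −8 bp). Peaks are at HMR alone, the ORFs of HML and MAT lie where 0.0% of single reads are unique, and all 10 matches at HML and HMR lie outside those stretches.

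None of the 4 silent genes had a summit in the 500 bp before its start codon, and 13% of all 6002 protein-coding genes did. The unique-mapping filter limits what this absence can show. For both HML genes these 500 bp lay in the repeated stretch from 12197 to 14017. For HMRA1 and HMRA2 they lay partly in the repeated stretch from 293032 to 293736. Genes for silencing and chromatin assembly, and for mating type and pheromone response, were counted the same way. Of 22 genes for silencing and chromatin assembly, 2 (9.09%) had such a summit. SAS5, a subunit of the SAS histone acetyltransferase that acts in silencing, had a fold enrichment of 12.8 with 1840 fragments, 202 bp before its start codon and with 1 motif. RLF2, the large subunit of chromatin assembly factor CAF-1, had a fold enrichment of 2.55 with 363 fragments, 412 bp before its start codon and with 2 motifs. Of 20 genes for mating type and pheromone response, 1 (5.00%) had a summit. It was STE6, the exporter of a-factor, with a fold enrichment of 3.21, 462 fragments and 0 motifs, 484 bp before its start codon. The RLF2 and STE6 peaks were under the fold enrichment of 4 that the study required of its selected sites. The RLF2 summit was not inside a tRNA gene. Summits inside tRNA genes were not removed from these counts. Among all 42 genes, 3 (7.14%) had a summit, which is below the share over all genes, and no difference was tested. MATALPHA1 and MATALPHA2, the expressed copies, had none. Their 500 bp lay in the repeated stretch from 199496 to 201177, so the filter limits this count as well.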

How the data were processed

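Paired-end reads were aligned by the authors to sacCer3 with HISAT2 2.0.5, filtered to 1 fragment per combination of molecular identifiers and to unique mapping, and peaks were called with MACS2 2.1.1.20160309 (q-value of 0.001, fold enrichment of 2) on 3 immunoprecipitations against 3 inputs together. The deposited list gives the fold enrichment, the −log10 p-value and the −log10 q-value of each summit, and an integer score that was not used further. For 941 of 948 peaks the fragments solved from fold enrichment and −log10 p-value were within 0.01 of a whole number. Total depth per sample was not analysed here.

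Motifs were scored with a matrix of 15 positions (log2 odds, equal base frequencies, pseudocount 0.8) computed here. Sequence, ORFs, origins and tRNA genes came from the RefSeq R64 annotation. Named genes were the 4 silent genes, their MAT copies, the nearest protein-coding gene on each side of each peak, the origins at the loci and listed genes with a summit. The loci and lists were chosen with earlier results of these data known. No p-value between groups was computed. Alternatives covered distance, fold enrichment, summits per interval, motif threshold and window, tRNA peaks, read length and read pairs. Functions were tested on simulated data. Scripts ran in Python 3.11.15 with pandas 2.3.3, scipy 1.17.1, numpy 2.4.6 and, for plots, matplotlib 3.10.9.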

Additional observations from a re-analysis of the deposited data

How the results depend on the processing

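The number of peaks at the loci, 2, was 1 with a limit of 1000 bp, 0 with a fold enrichment of 4 or more, and 2 with limits of 2000 and 5000 bp. Peaks with a motif, 2, were 1 at a threshold of 90%, 1 with the exact consensus, 0 within 50 bp, and 2 at 80% and with a matrix built without chromosome III. The higher HMR peak, rank 499 of 948, was 556 by fragments and 478 of 864 with 1 summit per interval. Leaving out peaks inside tRNA genes removed it, and the highest peak of the loci was then the HMR-E peak, at rank 646 of 717. Unique positions of the HMR cassette, 53.6% for single reads, were 61.5% and 73.2% for pairs of 237 and 400 bp, and those of HML stayed between 0.0% and 0.8%. Alternatives chosen after seeing the data gave 43 matches without a summit at a threshold of 80% and 4 at 90%, against 8, and 4 genes with a summit in 1000 bp, against 3. The cause of these shifts was not tested. No paired analysis was possible because the list pools the replicates. The counting error of the HMR-E value, 6.02% of 276 fragments, was larger than that of the tRNA-side peak, 4.72% of 448 fragments.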
